A study of Arabidopsis thaliana with 8 samples.

Results

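Cytosolic 60S ribosomal proteins, here the families from RPL3 to RPL24 of the usual numbering, are encoded by 58 Arabidopsis genes. These were chosen by locus identifier from the 27415 genes of the deposited tables. No measured value was a criterion, but earlier results of these data were known when the choice was made. All 58 were found and all passed the filter on low counts. They form 23 protein families, 12 of them with 2 paralogues, 10 with 3 and 1 with 4. The reads came from Arabidopsis thaliana seedlings of the Columbia-0 accession with no transgene or mutation named, kept dark for 4 days on Murashige and Skoog medium, and the light groups were then lit with white light for 4 h before harvest. Libraries were made of the steady-state mRNA and of the mRNA that ribosomes protected, in both conditions, which gives 4 groups of 2 libraries called repeat 1 and repeat 2. Ribosome-protected mRNA is what RNase I leaves of polysomes, so its reads in coding sequence (CDS) mark where ribosomes sat. The comparisons ask whether light changes the mRNA level of these genes, the number of ribosomes on them, and the ratio of both.

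The large subunit of the cytosolic ribosome holds the peptidyl transferase centre, where peptide bonds form, and the tunnel through which the new protein leaves. Its proteins are made in the cytosol, imported into the nucleolus, and assembled there on ribosomal RNA in amounts that have to match. Plants keep several genes for nearly every such protein, and Arabidopsis mutants in single paralogues show pointed leaves, changed leaf polarity or embryo arrest, which is how several loci below received their symbols. Light is known to load more mRNA onto polysomes in greening Arabidopsis seedlings, and ribosomal proteins are studied as part of that shift.

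The RPL13a and RPL9 families are printed because AT4G13170 and AT4G10450 held a larger share of their family's reads after light. This was so in both repeats of both kinds of RNA, but shares were not tested. Paralogues of other families also moved one way throughout. AT1G27400 (RPL17) was higher after light by 4.4 and 3.8 percentage points in mRNA and 5.5 and 8.2 in ribosome-protected mRNA. The first 60 bases of coding sequence are given 5′ to 3′ from RefSeq's TAIR10.1 assembly, and capitals mark positions at which the paralogues of a family differ. In RPL13a the lines are as follows.
AT3G07110, chr3:2252092-2252151, plus strand: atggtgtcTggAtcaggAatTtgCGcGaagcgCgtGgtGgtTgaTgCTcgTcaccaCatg
AT3G24830, chr3:9064613-9064672, plus strand: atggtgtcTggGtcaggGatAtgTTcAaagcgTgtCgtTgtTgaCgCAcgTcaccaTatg
AT4G13170, chr4:7656483-7656542, minus strand: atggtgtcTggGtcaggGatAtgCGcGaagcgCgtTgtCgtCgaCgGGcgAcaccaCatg
AT5G48760, chr5:19772627-19772686, minus strand: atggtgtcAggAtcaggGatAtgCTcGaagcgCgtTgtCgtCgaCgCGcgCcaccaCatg
In RPL9 the upper pair of genes has the same letters throughout these 60 bases.
AT1G33120, chr1:12010986-12011045, plus strand: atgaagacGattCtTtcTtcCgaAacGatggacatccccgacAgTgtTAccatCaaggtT
AT1G33140, chr1:12023360-12023419, plus strand: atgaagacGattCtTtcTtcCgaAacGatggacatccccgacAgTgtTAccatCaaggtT
AT4G10450, chr4:6464399-6464458, minus strand: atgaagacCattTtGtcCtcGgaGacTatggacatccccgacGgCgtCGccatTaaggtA
Over the whole coding sequence, the RPL13a paralogues were 79.7% to 86.2% identical. In RPL9, AT1G33120 and AT1G33140 matched at 580 of 585 bases, and 83.9% and 86.9% of their windows of 28 bases, about the length of a ribosome footprint, also occur elsewhere in the genome or in another coding sequence. Reads of these 2 genes can therefore be divided between them arbitrarily, and their separate values are uncertain. No source used here says how reads with several matches were treated. If they were dropped, the RPL9 sum would be too low and the share of AT4G10450 in it too high. AT4G10450 itself shared 3.05% of its windows. For the other 55 genes beside these 3, the share was 0% to 21.6%.

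CDS reads per library ran from 30997341 to 37245819 in mRNA. In ribosome-protected mRNA they were 4843438 (dark) and 4617343 (light) in repeat 1, and 14974871 and 40972194 in repeat 2, so repeat 1 is the shallower. Whether repeats are separate cultures is not stated, so the p-values measure the spread between these libraries, which may be technical. Levels below are CPM of CDS reads after TMM scaling, a method that sets libraries on a common scale from the bulk of their genes, divided by CDS length in kilobases, and are called scaled reads per kb. In mRNA 17.5% to 19.7% of the members' reads lay in 3′ untranslated regions, and in ribosome-protected mRNA 0.236% to 1.88%, where all genes had 13.9% to 15.0% and 0.247% to 1.63%. As a check of the tissue, the light-harvesting gene CAB2 (AT1G29920) stood at 4.10 and 8.43 in mRNA in the dark and 734 and 1166 after light. PORA (AT5G54190), a protochlorophyllide reductase of etiolated seedlings, stood at 68.4 and 462 in the dark and 3.54 and 6.88 after light. The seed storage gene CRA1 (AT5G44120) stood at 7.28 and 1.37 in dark mRNA, the root auxin transporter EIR1 (AT5G57090) at 9.58 and 11.2 in the dark and 2.81 and 2.68 after light, and the root hair gene SHV2 (AT5G49270) at or under 0.176 in every library.

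These genes were among the abundant ones. The median of the 58 mean levels was 128.9 scaled reads per kb, against 12.3 over all tested genes, and 35 of the 58 exceeded 100. The highest was AT1G02780 (emb2386) of RPL19, a protein that takes part in a bridge between the ribosomal subunits. It held 252 and 386 scaled reads per kb in mRNA in the dark, 276 and 404 after light, 375 and 619.6 in ribosome-protected mRNA in the dark and 398 and 594 after light. In each group its repeat 2 was the higher, and the light and dark groups overlapped. The lead of RPL10, a late-joining protein close to the catalytic centre, was AT1G14320 (SAC52), with 222 and 366 in mRNA in the dark, 234 and 372 after light, and 316 and 498 and then 342 and 470.0 in ribosome-protected mRNA. RPL23 was led by AT3G04400 (emb2171), with 258 and 387 in mRNA in the dark and 272 and 399.9 after light, and with 245 and 454 and then 234 and 442 in ribosome-protected mRNA. Both genes had overlapping ranges in light and dark, with the gap between repeats wider than that between conditions.

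RPL12, at the base of the stalk that receives translation factors, was led by AT3G53430 with 136 and 190.3 in dark mRNA, 156 and 197 in light mRNA, and 225 and 397 and 202 and 365 in ribosome-protected mRNA of dark and light. For RPL18 the lead AT3G05590 (RPL18) gave 116 and 211 in dark mRNA, 129 and 218 in light mRNA, and 179 and 315 and 162 and 312 in ribosome-protected mRNA of dark and light. In both genes the ribosome-protected levels of a repeat exceeded its mRNA levels.

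Family sums were more even than single genes. They averaged 304 to 543 scaled reads per kb in 21 of the 23 families, with RPL19 the highest, while RPL11, which binds the 5S ribosomal RNA together with RPL5, averaged 182 and RPL9, with its shared windows, 98.3. Inside families the paralogues ranged from equal to very unequal, and in 16 of 23 families the same gene held the largest share in all 8 libraries. RPL3, a protein that reaches towards the catalytic centre, drew 89.1% to 93.3% of its reads per kb from AT1G43170 (RP1). RPL14 drew 82.5% to 94.3% from AT4G27090, and RPL8, which lies at the catalytic centre, 76.5% to 83.7% from AT2G18020 (EMB2296). The pairs of RPL4, RPL7a, RPL15 and RPL18 were near equal, and either gene could lead, AT4G16720 in 3 and AT4G17390 in the other 5 of the 8 libraries in RPL15.

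**Figure D1:**
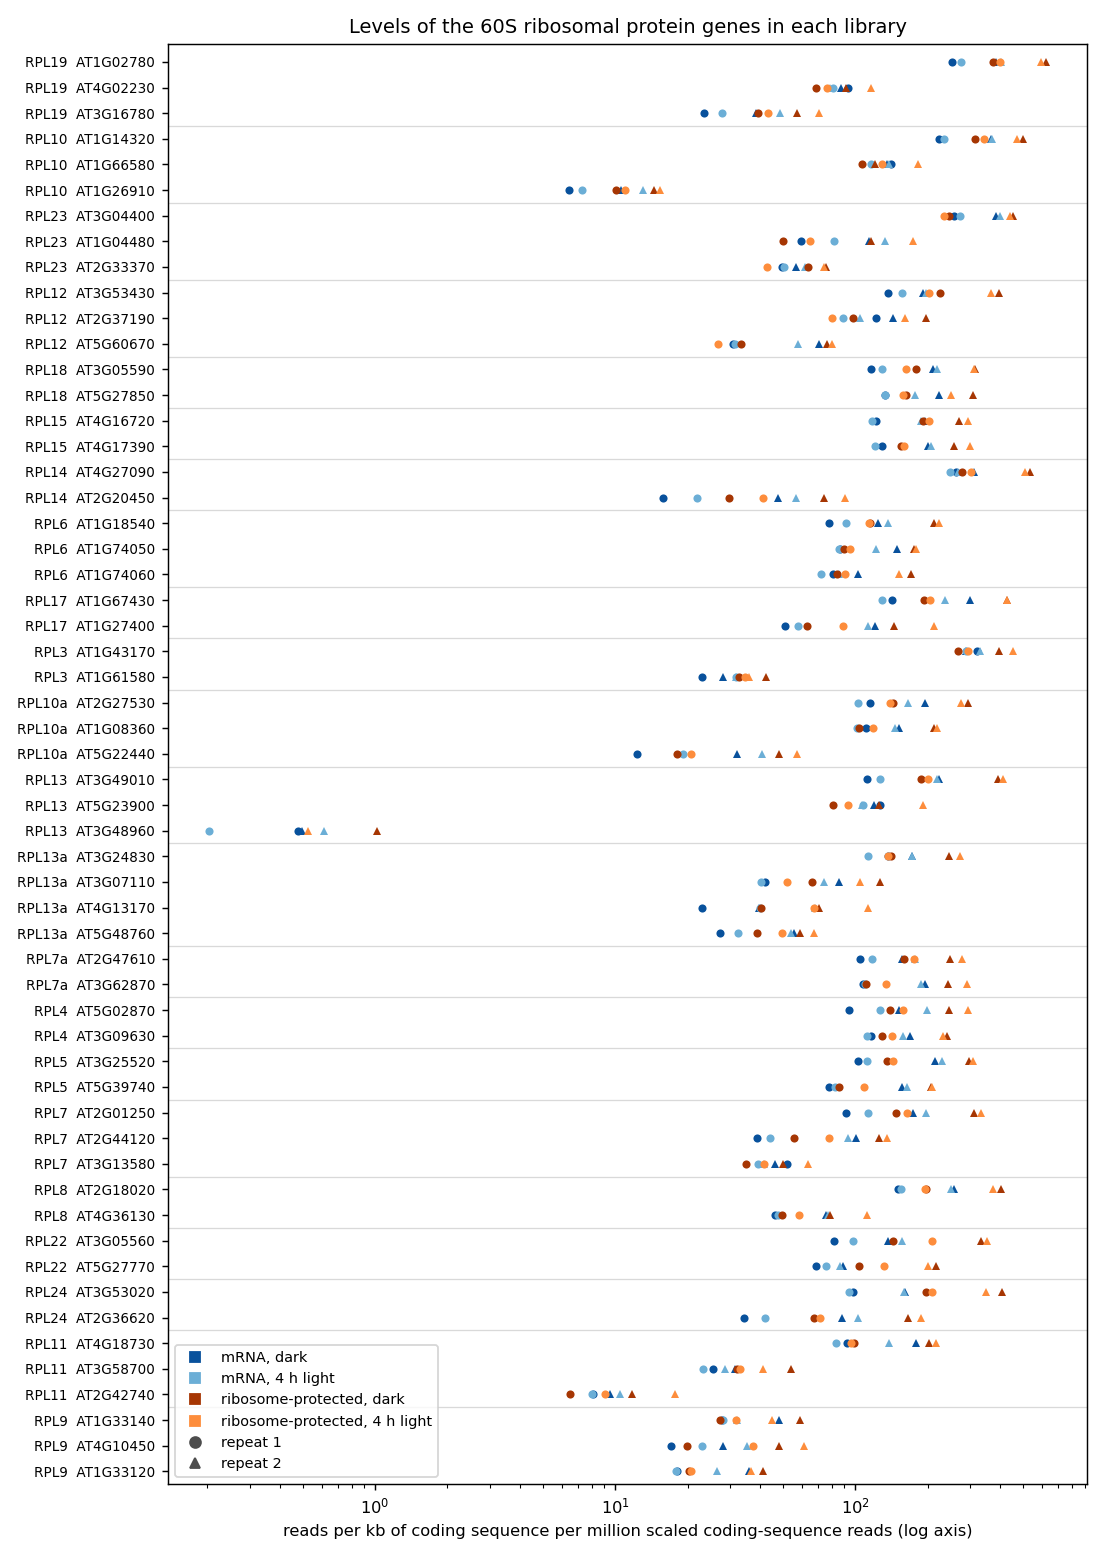
Scaled reads per kb of coding sequence (log axis) of each gene in each of the 8 libraries, with reported genes ordered inside families and families ordered by their summed level. Colours give the kind of RNA and the light condition and shapes the repeat, single points are libraries, values of 0 are not drawn, and triangles of repeat 2 lie to the right of circles for most genes.

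The least abundant paralogues were those that averaged under 10% of their family's lead. The lowest was AT3G48960 of RPL13, with 10 and 13 CDS reads in dark mRNA, 4 and 16 in light mRNA, 0 and 9 in dark and 0 and 11 in light ribosome-protected mRNA. Its neighbour AT3G49010 (BBC1), 86.3% identical, led the family at 112 and 222 scaled reads per kb in dark mRNA. AT1G26910 (RPL10B) stood at 6.41 and 10.5 in dark mRNA, 7.24 and 12.98 in light mRNA, and 10.03 and 14.5 and 10.99 and 15.3 in ribosome-protected mRNA of dark and light. AT2G42740 (RPL16A), a member of the RPL11 family in spite of its symbol, stood at 8.05 and 9.49, 7.97 and 10.4, 6.49 and 11.8 and 9.03 and 17.7 in the same order, and AT1G61580 (RPL3B) at 23.1 and 28.1, 31.7 and 31.9, 32.9 and 42.3 and 34.6 and 36.00. All 4 stood below their paralogues in every library, and their light and dark ranges overlapped except for AT1G61580 in mRNA.

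The widest difference among libraries was between repeats. The 58 genes together took 0.369% of CDS reads in repeat 1 and 0.679% in repeat 2 of dark mRNA, and 0.365% and 0.603% of light mRNA. They took 0.397% and 0.747% of dark ribosome-protected mRNA, and 0.422% and 0.674% of light ribosome-protected mRNA. The 95% Wilson intervals, which cover counting error only, were at most 0.0118 percentage points wide. On the log2 scale the median member was higher in repeat 2 by 0.71 in dark mRNA, 0.66 in light mRNA, 0.93 in dark and 0.88 in light ribosome-protected mRNA, where the median of all tested genes moved by 0.02, 0.02, 0.06 and 0.10. In both groups of ribosome-protected mRNA all 58 genes were higher in repeat 2, against 52.9% (dark) and 56.6% (light) of all tested genes. In mRNA it was 53 of 58 in the dark and 56 of 58 after light. The 5 exceptions in dark mRNA were AT3G13580 (RPL7), AT5G23900 (RPL13), AT4G02230 (RPL19), AT1G66580 (SAG24, RPL10) and AT1G43170 (RPL3), which stood lower in repeat 2 by at most 0.17, and after light AT5G23900 and AT4G02230 remained. The 50 other large-subunit and 80 small-subunit genes tested went the same way, with medians of 0.79 and 0.63 in dark mRNA and 1.04 and 0.99 in dark ribosome-protected mRNA. The 19 assembly factors had medians of 0.06 in dark mRNA, 0.04 in light mRNA, 0.10 in dark and 0.02 in light ribosome-protected mRNA, with 13, 10, 13 and 10 of 19 higher in repeat 2. Of the marker genes, CRA1 stood at 7.28 in repeat 1 and 1.37 in repeat 2 of dark mRNA, and PORA at 68.4 and 462, and their part in the repeat difference was not tested. In bulk seedlings, fewer cells of a type and less RNA per cell cannot be told apart.

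Light left the mRNA of this set without a call in a fit that has 1 mean per group and no term for the repeat. By edgeR's quasi-likelihood test 0 of 58 genes were called in mRNA at an adjusted p of 0.05, where 4.78% of all 19823 tested genes were, 0 had an unadjusted p under 0.05 against 19% of all genes, and DESeq2 also called 0 where it called 11.3%. The median log2 change was -0.01 over the members and 0.01 over all genes, with a median SE of 0.46 for the fitted changes. Within repeat 1 the median was 0.03, within repeat 2 it was -0.01, and 23 genes were higher and 21 lower after light in both. Leaving out 1 library moved the member median to between -0.38 and 0.36. Groups did not overlap for 2 genes on the higher side, where 25.8% of all genes lay, and for 5 on the lower side, where 20.2% lay. The fitted changes of summed families included -0.24 (SE 0.51) in RPL11 and 0.16 (SE 0.47) in RPL4, with 0 of 23 called where 4.77% of all rows of that fit were.

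The gene with the highest fitted change in mRNA was AT4G13170 of RPL13a. It stood at 22.9 and 39.6 scaled reads per kb in the dark and at 39.9 and 67.6 after light in repeats 1 and 2. Each repeat was higher after light by a like amount, and the lowest light library was just above the highest dark one. The fitted log2 change was 0.78 (SE 0.46), with a 95% interval of -0.31 to 1.88 and an adjusted p of 0.44 by edgeR, and within repeats it was 0.80 in repeat 1 and 0.77 in repeat 2. Without a term for the repeat, the SE, interval and p of this fit, here and below, include the gap between repeats. A fit with such a term is given in the closing section. Leaving out 1 library moved the fitted change of AT4G13170 to between 0.32 (without light repeat 2) and 1.21 (without dark repeat 2). Its 3 paralogues had smaller fitted changes, the lowest being -0.16 for AT3G07110. AT3G07110 stood at 42.1 and 85.5 in the dark and 40.4 and 73.9 after light, and AT3G24830 at 137 and 173 and then 113 and 173. AT5G48760 stood at 27.4 and 55.3 and then 32.6 and 54.1. The share of AT4G13170 in the family's reads per kb therefore went from 9.98% and 11.2% in the dark to 17.7% and 18.4% after light in mRNA, and from 14.2% and 14.1% to 22.1% and 20.3% in ribosome-protected mRNA, while the summed family had a fitted mRNA change of 0.03 (SE 0.47). Shares need no scaling between libraries, and the spread between repeats within each of the 4 groups was at most 1.80 points.

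In RPL9, a family whose paralogue AT1G33140 is the leaf polarity gene PGY2, the more diverged AT4G10450 held a larger share after light. It stood at 17.1 and 28.01 scaled reads per kb in dark and 22.9 and 35.4 in light mRNA, and at 19.8 and 48.05 and then 37.5 and 61.2 in ribosome-protected mRNA. The groups overlapped in level, and the fitted changes were 0.37 (SE 0.50) and 0.53 (SE 0.51). Its share of the family was 27.2% and 24.9% in dark and 33.2% and 37.7% in light mRNA. In ribosome-protected mRNA it was 29.4% and 32.5% and then 41.7% and 42.8%. Repeat 1 of ribosome-protected mRNA held few reads of AT4G10450, 52 in the dark and 93 after light. The share does not depend on how reads were split between the near-identical pair, which together held the rest of the family, but it does depend on whether reads with several matches were kept.

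Paralogues also differed in mRNA in RPL10a and RPL12. In RPL12 AT2G37190 stood at 122 and 143 in dark and 88.7 and 105 in light mRNA, so both light libraries were below both dark ones, with a fitted change of -0.46 (SE 0.44) and an adjusted p of 0.674 by edgeR. Its share was lower after light in both repeats, from 42.2% and 35.4% to 32.1% and 29.1%, while AT3G53430 went from 47.1% and 47.1% to 56.4% and 54.8%. In ribosome-protected mRNA AT2G37190 went from 27.4% and 29.5% to 25.8% and 26.5%, and AT3G53430 from 63.2% and 59.2% to 65.4% and 60.3%. In RPL4, which lines the exit tunnel, AT5G02870 went from 44.9% and 47.2% to 53.00% and 55.8% of mRNA, so that it passed AT3G09630 there, and its levels were 94.2 and 151 and then 126 and 198. Of ribosome-protected mRNA AT5G02870 already held the larger share in the dark, 51.9% and 50.3%, and then 52.6% and 56.2% after light. In RPL10a, the family of the leaf polarity gene PGY1 (AT2G27530), the minor paralogue AT5G22440 went from 5.20% and 8.48% to 8.57% and 11.6% of mRNA, with a fitted change of 0.43 (SE 0.74). Its level was 12.3 and 32.2 in the dark and 19.2 and 40.8 after light, so the repeats differed more than the conditions. Among the named genes AT1G61580 (RPL3B) had a fitted mRNA change of 0.32 (SE 0.22) and AT3G13580 (RPL7) of -0.27 (SE 0.28), with adjusted p of 0.52 and 0.697 by edgeR.

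**Figure D2:**
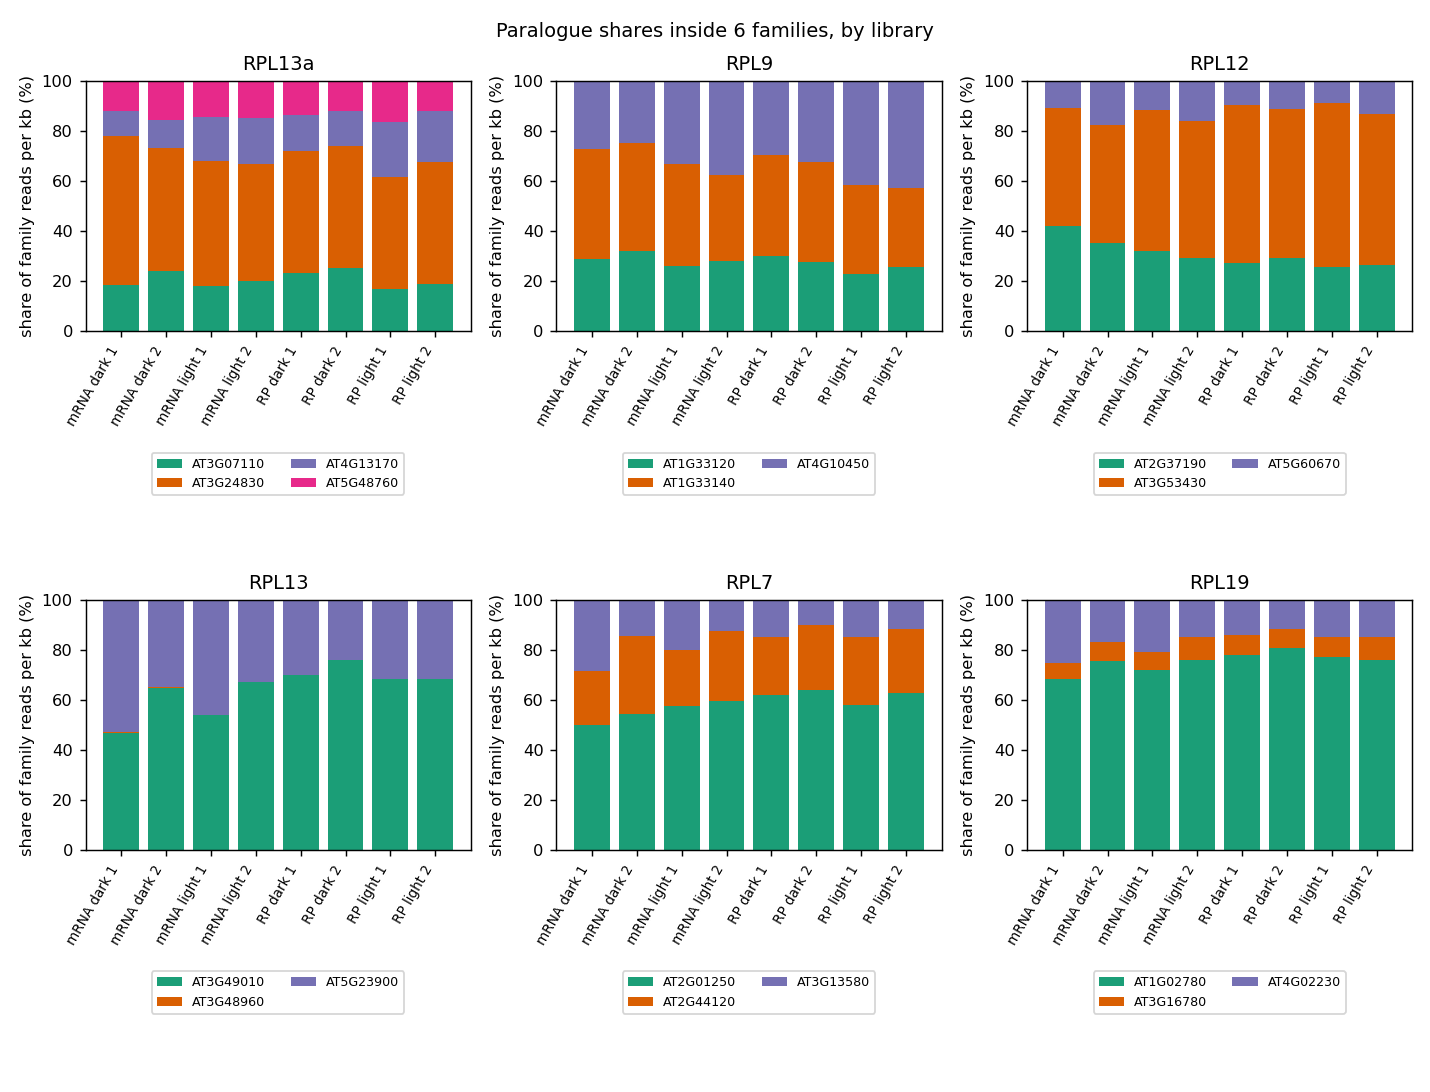
Share of each paralogue in its family's reads per kb of coding sequence (%), in 6 families and each of the 8 libraries, where RP stands for ribosome-protected mRNA and 1 and 2 for the repeat. Stacked bars start at 0 and sum to 100%, and AT4G13170 (RPL13a) and AT4G10450 (RPL9) change between dark and light by more than between repeats in mRNA.

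Ribosome-protected reads after light gave 0 of 58 calls by edgeR, where 6.84% of all tested genes were called, 0 at an unadjusted p under 0.05 against 21.5%, and 0 by DESeq2 against 13.6%. The median log2 change was 0.07 over the members and -0.03 over all genes, 38 of 58 fitted changes lay above 0, and 30 genes were higher and 10 lower in both repeats. The medians within repeats were 0.11 and 0.07, and leaving out 1 library moved the fitted median to between -0.42 and 0.56. Of the 23 summed families 0 were called, where 6.86% of the rows of that fit were. Groups did not overlap for 1 gene, on the higher side, where 25.9% of all genes lay. That gene was AT1G66580 (SAG24) of RPL10, with 106 and 120.4 scaled reads per kb in the dark and 129 and 182 after light, a fitted change of 0.46 (SE 0.25) and an adjusted p of 0.365 by edgeR. AT4G13170 again had the highest fitted change, 0.70 (SE 0.46), with 40.5 and 70.3 in the dark and 67.3 and 113 after light and an adjusted p of 0.458 by edgeR. Leaving out 1 library moved it to between 0.27 (without light repeat 2) and 1.16 (without dark repeat 2). Its dark repeat 2 lay above its light repeat 1, so the groups overlapped although both repeats were higher after light.

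Inside families the ribosome-protected changes differed most in RPL13, where AT3G48960 has too few reads to read, and then in RPL13a, RPL11, RPL23 and RPL9. In RPL11 AT2G42740 (RPL16A) had a fitted change of 0.55 (SE 0.44), with only 16 dark and 21 light reads in repeat 1. AT3G58700 had one of -0.21 (SE 0.31), from 32.1 and 53.8 in the dark to 33.1 and 41.4 after light. In RPL23 AT1G04480 stood at 50.03 and 116 in the dark and 64.8 and 173 after light, and AT2G33370 at 63.7 and 75.1 and 43.00 and 74.3, a fitted change of -0.23 (SE 0.30) with an adjusted p of 0.735 by edgeR. AT1G04480 was higher after light in both repeats, and the log2 difference of AT2G33370, light minus dark, was -0.57 in repeat 1 and -0.02 in repeat 2. In RPL12 AT2G37190 stood at 97.4 and 198 and then 79.7 and 160.2, lower after light in both repeats with overlapping groups and a fitted change of -0.30 (SE 0.44).

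**Figure D3:**
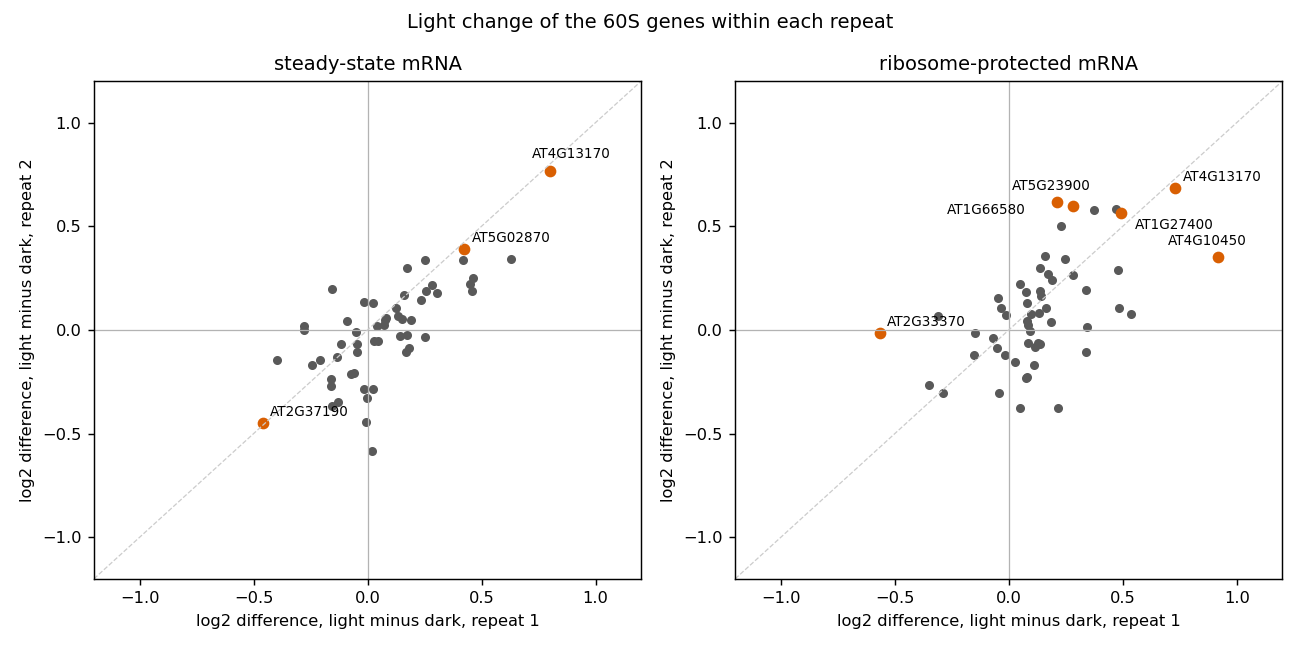
Log2 difference between light and dark within repeat 1 (x axis) and within repeat 2 (y axis) for steady-state mRNA and for ribosome-protected mRNA. Each point is a reported gene, AT3G48960 is left out for its few reads, named genes are coloured, and the dashed line is equality, with AT4G13170 near it at the upper end of both panels and AT2G37190 near it on the lower side of the mRNA panel.

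The ratio of ribosome-protected to mRNA reads, the translational efficiency, changed with light in 0 of 58 genes by the interaction term of edgeR, as in 0% of all tested genes, of which 261 (1.32%) had an unadjusted p under 0.05, 0 of them members. DESeq2 called 15 genes (0.0757%) and 0 members. In 10 of 58 genes (17.2%) mRNA moved one way and ribosome-protected reads the other way in both repeats. This pattern, which counts signs of any size, was met in 5.99% of all tested genes. That share is not a like baseline. For light, 19% (mRNA) and 21.5% (ribosome-protected) of all genes had an unadjusted p under 0.05 by edgeR, and 0 members did. No interaction was called among the 10. The median log2 interaction was 0.07 over members and -0.07 over all genes, and within repeats the member medians were 0.12 and 0.04. Leaving out 1 library moved the member median to between -0.39 and 0.68. Among the genes of small p on the higher side were AT1G66580 at 0.58 (SE 0.36) and AT3G13580 at 0.58 (SE 0.40). On the lower side the 3 of smallest p were AT1G61580 at -0.41 (SE 0.31), AT2G33370 at -0.31 (SE 0.42) and AT3G53430 at -0.24 (SE 0.59), and all 5 had an adjusted p of 1.

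Within a condition, ribosome-protected reads relative to mRNA were mostly higher for these genes in the fit, but no gene was called without a term for the repeat. In the dark 52 of 58 fitted differences were above 0 and after light 57 of 58, with medians of 0.46 and 0.49 on the log2 scale where all tested genes had 0.01 and 0.01. Calls were 0 of 58 in both, where 4.66% and 2.46% of all tested genes were called, 3 and 1 genes had an unadjusted p under 0.05 where 24.5% and 18.9% of all genes had one, and DESeq2 called 0 in both where it called 13.6% and 8.7%. Groups did not overlap on the higher side for 10 genes in the dark and 12 after light, which is 17.2% and 20.7% of the members where 22.9% and 21.8% of all tested genes lay. In the dark alone, 1 gene, AT1G66580, lay on the lower side, where 27.6% of all genes lay. Member medians within repeats were 0.33 and 0.49 in the dark, and 0.33 and 0.57 after light. Without repeat 2 of the ribosome-protected libraries the fitted medians were -0.13 in the dark and 0.0246 after light. The summed families gave 0 of 23 calls in both conditions, where 4.71% and 2.47% of the rows of that fit were called. Total-read scaling without TMM factors lowered both medians to 0.14 and those of all genes to -0.28 in the dark and -0.29 after light.

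The highest differences belonged to the RPL22 and RPL24 families. AT3G53020 (STV1, RPL24B), known in Arabidopsis for its part in reinitiation after upstream reading frames, stood at 97.5 and 161 scaled reads per kb in dark mRNA and 197 and 408 in dark ribosome-protected mRNA. After light it held 94.2 and 159.6 and 208 and 348. The ribosome-protected libraries were above the mRNA libraries in both conditions, with fitted differences of 1.23 (SE 0.50) in the dark and 1.14 (SE 0.50) after light, and adjusted p of 0.195 and 0.289 by edgeR. AT5G27770 (RPL22) stood at 68.3 and 88.4 in dark mRNA and 104 and 217 in dark ribosome-protected mRNA, and at 75.3 and 86.6 and 132 and 201 after light. Its paralogue AT3G05560 stood at 81.5 and 137 and 144 and 334 in the dark, and at 97.3 and 156 and 208 and 352 after light. Neither RPL22 gene overlapped between the kinds of RNA, and their fitted differences lay between 1.04 (SE 0.40) and 1.15 (SE 0.52). AT1G61580 (RPL3B) was among the 3 genes of smallest p in the dark, at 0.56 (SE 0.22) with an adjusted p of 0.179 by edgeR, and after light it was 0.15 (SE 0.22).

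At the other end, among the genes with a fitted difference below 0 in the dark, AT1G04480 (RPL23) was at -0.05. Another 4, none of them the lead of its family by mean level, are given beside a paralogue of the same family. AT1G66580 (SAG24, RPL10) had a fitted difference of -0.29 (SE 0.25) against 0.54 for AT1G26910, and AT3G13580 (RPL7) of -0.20 (SE 0.28) against 0.79 for AT2G01250. AT5G23900 (RPL13) had -0.26 (SE 0.38) against 0.80 for AT3G49010 (BBC1), and AT4G02230 (RPL19) had -0.18 (SE 0.27) against 0.65 for AT3G16780. After light the fitted differences of 57 of the 58 members were above 0. All 4 genes, picked for values below 0 in the dark, were among them, from 0.28 (SE 0.27) to 0.42 (SE 0.38). The repeats differed in the signs of these 4 genes. In dark repeat 2 AT3G13580 was at 0.11, AT5G23900 at 0.06 and AT4G02230 at 0.07, all above 0, and in light repeat 1 AT5G23900 was at -0.20 and AT4G02230 at -0.09. AT1G66580 was below 0 in both dark repeats, at -0.40 in repeat 1 and -0.18 in repeat 2, and above it in both light repeats, at 0.16 in repeat 1 and 0.40 in repeat 2. In RPL13, AT5G23900 took 53.1% and 35.04% of dark mRNA, 45.9% and 32.7% of light mRNA, 30.1% and 24.1% of dark and 31.8% and 31.6% of light ribosome-protected mRNA. Its level was 127 and 120.0 in dark and 107 and 107 in light mRNA, so repeat 2 was no higher than repeat 1, while BBC1 stood at 112 and 222 and 126 and 219. AT3G13580 took 28.5% and 14.4% of dark mRNA and 14.8% and 10.3% of dark ribosome-protected mRNA, and AT4G02230 25.3% and 17.01% and 14.1% and 11.9%. AT1G66580 took 38.1% and 26.5% and then 24.6% and 19.03%. The gap between mRNA and ribosome-protected share was wider in repeat 1 than in repeat 2 for AT5G23900, AT3G13580, AT1G66580 and AT4G02230.

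**Figure D4:**
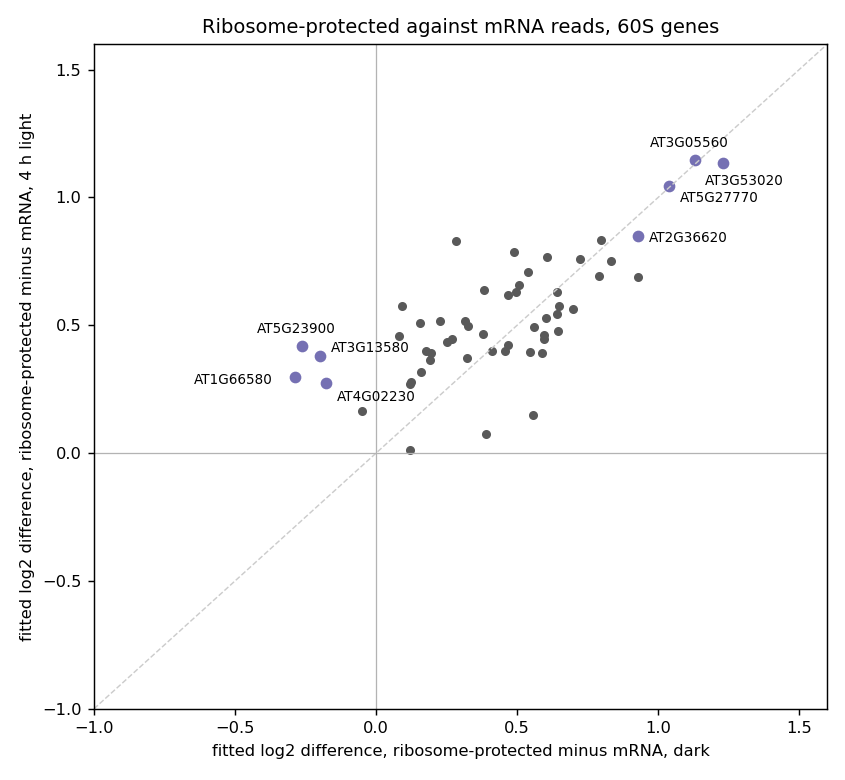
Fitted log2 difference between ribosome-protected and mRNA reads in the dark (x axis) and after 4 h of light (y axis), 1 point a reported gene, with AT3G48960 left out for its few reads. The dashed line is equality, the 4 named genes at the left have fitted values below 0 in the dark and above it after light, which held in each repeat for AT1G66580 alone among them, and RPL22 and RPL24 genes lie at the upper right. Of all 58 members, 57 had a fitted value above 0 after light.

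Set beside related genes, the 58 were not alone. Among 50 tested genes for the other large-subunit proteins and 80 for small-subunit proteins, 0 were called in mRNA and 0 in ribosome-protected mRNA by light, with medians of 0.02 and 0.01 in mRNA and 0.07 and 0.07 in ribosome-protected mRNA. Their medians of ribosome-protected against mRNA reads were 0.74 and 0.71 in the dark, and 0.88 and 0.78 after light, above those of the members. Of these lists, small-subunit gene AT4G30800 had the smallest adjusted p in both light comparisons, 0.0909 in mRNA and 0.0971 in ribosome-protected mRNA by edgeR, at log2 changes of 1.10 and 1.05. Among 19 factors of 60S assembly and the nucleolus 0 were called by light, with medians of 0.22 in mRNA and 0.21 in ribosome-protected mRNA. The smallest adjusted p there was 0.155 for AT5G15550 in mRNA, at 0.65, and 1 factor, AT2G40360, was called in dark seedlings as lower in ribosome-protected reads, at -1.45 with an adjusted p of 0.0332 by edgeR.

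Upstream of the genes, 2 motifs that ribosomal protein promoters are known for were looked up in the 250 bases before the annotated start. Site II is written TGGGCC or TGGGCT and the telo box AAACCCTA, both read on either strand, and site II matches may overlap each other. Site II was found in 43 of 58 members (74.1%) and in 19.4% of 26712 promoters of all genes, and the telo box in 12 members (20.7%) against 4.44%. The other large-subunit genes held them in 65.4% and 23.1% of promoters, the small-subunit genes in 66.7% and 14.8%, and the assembly factors in 63.2% and 31.6%. RPL13a contains the gene with the highest fitted light change, which was not called in the main fit. The 150 bases before the start of the 4 RPL13a genes are therefore printed with matches in capitals, 5′ to 3′ on the gene's strand.
AT3G07110, chr3:2251796-2251945, plus strand: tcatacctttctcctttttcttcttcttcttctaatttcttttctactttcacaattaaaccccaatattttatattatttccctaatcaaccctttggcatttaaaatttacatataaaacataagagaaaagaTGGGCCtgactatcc
AT3G24830, chr3:9064375-9064524, plus strand: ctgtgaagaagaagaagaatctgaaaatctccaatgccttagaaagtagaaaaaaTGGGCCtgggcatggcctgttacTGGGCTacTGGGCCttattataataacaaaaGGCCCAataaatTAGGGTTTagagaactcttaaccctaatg
AT4G13170, chr4:7656595-7656744, minus strand: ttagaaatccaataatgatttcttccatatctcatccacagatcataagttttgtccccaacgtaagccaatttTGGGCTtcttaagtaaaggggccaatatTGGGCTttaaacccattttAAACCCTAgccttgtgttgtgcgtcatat
AT5G48760, chr5:19772790-19772939, minus strand: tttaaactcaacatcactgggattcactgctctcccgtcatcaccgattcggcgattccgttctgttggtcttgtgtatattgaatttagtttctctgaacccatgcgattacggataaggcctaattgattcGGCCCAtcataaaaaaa
All 4 hold a site II match in this window, and AT3G24830 and AT4G13170 hold a telo box as well. A match is a description of letters and not a bound site. The fitted mRNA light changes of these 2 genes were -0.12 (SE 0.44) for AT3G24830 and 0.78 (SE 0.46) for AT4G13170. Neither was called in the main fit, and a link between motifs and light was not tested.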

How the data were processed

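Per the file headers, the authors deposited whole-number read counts for 5′ untranslated region, coding sequence (CDS) and 3′ untranslated region of 1 model per locus, and RPKM values. The deposited RPKM of CDS served only to check the counts, and 16 RPKM columns of untranslated regions were not used. Repeat 1 and repeat 2 stand in separate tables. The build was TAIR10, per the submitters' processing notes, and no source used here gives the aligner, the strand setting or what was done with reads of several matches.

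CDS counts of 19823 genes that passed filterByExpr were scaled by TMM (factors 0.824 to 1.26) and fitted with edgeR 4.0.16 (R 4.3.3, quasi-likelihood, 1 mean per group over all 8 libraries, two-sided, Benjamini-Hochberg over all tested genes, threshold 0.05). DESeq2 1.42.0 and the other settings are in the closing section. Within-repeat differences used log2 CPM with a prior count of 2. The depth per library and the wide intervals are given with the results. The main fit was tried on simulated counts for the mRNA light comparison only. Those counts were drawn independently per library, with no shift between repeats, so they do not cover the other comparisons. The main fit did not take the numbers of the repeats as pairs, because the labels do not say what they share. Within-repeat differences, and counts of genes that moved one way in both repeats, do set same-numbered libraries against each other.

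Named genes were, in each comparison, the 3 with the smallest adjusted p in each direction, the lead of the 5 most abundant families, members under 10% of their lead, and the 5 families whose paralogues differed most in each light change. Genes flagged for opposite directions, and their paralogues, are named too. The genes of 1 family are not reported singly here and not drawn, but are in all counts and medians. Members and lists were chosen with earlier results of these data known. Sequences, symbols and exact coordinates are from RefSeq's TAIR10.1, in which all 58 CDS lengths equalled those of the tables.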

Additional observations from a re-analysis of the deposited data

Results flagged for a closer look

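In 10 of 58 genes (17.2%) the mRNA moved one way with light in both repeats and the ribosome-protected reads the other way in both, a pattern met in 5.99% of all tested genes. The difference was tested by the interaction of edgeR, and all 10 had an adjusted p of 1. Of these, 6 had lower mRNA and higher ribosome-protected reads after light. Their log2 interactions were 0.68 for AT5G23900 (RPL13), 0.58 for AT3G13580 (RPL7), 0.45 for AT4G02230 (RPL19), 0.22 for AT1G74050 (RPL6), 0.18 for AT1G08360 (RPL10a) and 0.17 for AT4G16720 (RPL15). The other 4 had higher mRNA and lower ribosome-protected reads, at -0.31 for AT2G33370 and -0.11 for AT3G04400 (both RPL23), -0.24 for AT3G53430 (RPL12) and -0.15 for AT3G05590 (RPL18). The 5.99% is not a like baseline. All tested genes include many with an unadjusted p under 0.05 for light by edgeR, and the members include 0. The rule took signs only, with no limit on size, and some of the log2 differences were near 0. In repeat 2 of ribosome-protected mRNA AT2G33370 and AT3G05590 were at -0.016, and in repeat 1 of mRNA AT1G74050 was at -0.017. Others were farther from 0, such as AT5G23900 at -0.24 and -0.17 in mRNA and 0.21 and 0.615 in ribosome-protected mRNA. Groups of 2 libraries are too small to single out a library by its distance from the others.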

How the results depend on the processing

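Leaving out any library, DESeq2, RLE size factors, total CDS reads and no filter on low counts all left 0 of 58 genes called in each comparison and 0 of 23 families in the light comparisons and the interaction, and so did the fit of 4 libraries, which was not made for the interaction. The replicate block called 3 genes in mRNA (among them AT4G13170 at 0.79, adjusted p 0.00202 by edgeR, and AT5G22440 at 0.49, adjusted p 0.0381, both higher) where it called 33.6% of all genes, 2 in ribosome-protected mRNA (AT4G13170 and AT1G27400; 32%), 0 for the interaction, 28 for ribosome-protected against mRNA in the dark (27 higher, 40.4%) and 24 after light (32.6%), with 5 and 10 of 23 families in the last 2. With the block edgeR's estimate of biological variation (BCV) went from 0.391 to 0.170. Same-numbered libraries deviated together at r = 0.575 to 0.806 across all genes and 0.303 to 0.808 across the 58 members. With 2 repeats this is no proof of a pairing. The lowest member values were 0.303 for dark mRNA with light ribosome-protected mRNA and 0.308 for dark mRNA with dark ribosome-protected mRNA. Member medians moved when 1 library was left out, which leaves its group with 1 repeat. The median member stood higher in repeat 2, by 0.71 in dark and 0.66 in light mRNA. In ribosome-protected mRNA it was 0.93 in the dark and 0.88 after light. Within repeats 1 and 2, the light-minus-dark medians were 0.03 and -0.01 in mRNA, and 0.11 and 0.07 in ribosome-protected mRNA. How much the unequal repeats add to the moves was not tested. Leaving 1 out gave -0.38 (without light repeat 2) to 0.36 (without dark repeat 2) in mRNA and -0.42 (without light repeat 2) to 0.56 (without dark repeat 2) in ribosome-protected mRNA. It gave -0.39 (without dark mRNA repeat 2) to 0.68 (without dark ribosome-protected repeat 2) for the interaction. The dark ratio ran from -0.13 (without ribosome-protected repeat 2) to 0.85 (without mRNA repeat 2) and the light ratio from 0.0246 (without ribosome-protected repeat 2) to 0.867 (without ribosome-protected repeat 1). The mRNA median was -0.0895 with DESeq2 and RLE, -0.127 with total reads and 0.0266 in repeat 1 alone. The ribosome-protected median was 0.0103 with DESeq2, 0.0105 with RLE, -0.0703 with total reads and 0.11 in repeat 1 alone. The ratio medians were 0.14 (dark) and 0.14 (light) with total reads, and 0.33 in repeat 1 alone in the dark. Directions of single genes reversed only when 1 library was left out. The ribosome-protected changes then ran from -0.0476 to 1.08 for AT2G42740, -0.69 to 0.10 for AT2G33370, -0.89 to 0.31 for AT2G37190 and -0.52 to 0.23 for AT3G58700. The interactions ran from -0.778 to 0.0156 for AT2G33370 and -0.74 to 0.23 for AT3G53430. The ratio ran from -0.482 to 0.0227 in the dark for AT3G13580, and from -5.70 to 0.85 after light for AT3G48960. The cause was not tested. The values of 1 repeat alone were chosen after seeing the data. Shares without division by length were computed for AT4G13170, AT5G23900, AT4G10450 and AT5G02870 only, and moved by less than their spread. The paralogues of their families have equal or nearly equal CDS lengths, so these shares could hardly move. Leaving RPL9 out could not change which family spread most, because RPL9 was not that family in either light change. Depth limits repeat 1 of the ribosome-protected reads most.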
